A study of Mus musculus with 96 samples.

Results

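Striatal RNA of R6/2 mice at 1 month of age was compared with that of NCAR mice of the same age in the immunoprecipitated (IP) fraction that stands for astrocyte RNA in the series. The comparison took every library described as IP at 1 month and as R6/2 (4 libraries) or NCAR (4 libraries), which is 8 of the 96 libraries of the series. R6/2 mice carry the first exon of the human huntingtin gene with an expanded CAG repeat, and NCAR is the genotype they were set against, an abbreviation that the labels do not spell out. All mice had a CBA x C57BL/6 background and received an adeno-associated virus (AAV) in the striatum. The labels name neither the cargo of the virus nor the target of the antibody. Input libraries, made from the whole striatal sample, and IP libraries at 2 and 3 months were used beside the main comparison, with 4 libraries in each group. The labels do not say whether libraries are single or pooled animals, so p-values measure the spread between these libraries.

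Huntington's disease strikes the medium spiny neurons of the striatum, which receive dopamine and glutamate and signal through cyclic AMP by way of adenylyl cyclase, phosphodiesterases and DARPP-32. Astrocytes wrap the synapses of these neurons, take up glutamate and GABA, and clear potassium through inward-rectifier channels. R6/2 is a fast model of the disease, and 1 month is the earliest age of this genotype in the series.

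Depth was 44167461 to 71264009 reads in the R6/2 IP libraries and 52457817 to 68312095 reads in the NCAR IP libraries. The astrocyte label was checked on NCAR IP over NCAR input at 1 month, in which 71.7% of all genes were called and 34.9% were called higher. There 30 of 30 astrocyte markers were called higher, with a median log2 fold change of 2.98. The median was -4.21 for 15 microglia markers, -1.91 for 15 endothelial and mural markers, -1.35 for 24 medium spiny neuron markers shared by both pathways and -0.67 for 20 mature oligodendrocyte markers. Markers of medium spiny neurons and of mature oligodendrocytes were thus reduced in the IP but present. Precursor and newly formed oligodendrocyte genes had a median of 0.62, with 8 of 12 called higher and 1 lower. Markers of ependymal cells and of striatal interneurons were at 2.29 and 1.95, so these lists were enriched with the astrocyte markers. In each genotype 1 IP library stood apart by a high level of interferon response genes, R6/2 replicate 2 and NCAR replicate 1, and results that rest on them are also given without them, an alternative chosen after seeing the data.

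Few genes passed the test at this age. Of 15119 genes tested, 12 (0.0794%) were called at an adjusted p under 0.05 (limma on log2 CPM, Benjamini-Hochberg over all genes), with 2 higher (0.0132%) and 10 lower (0.0661%) in R6/2. The higher genes were the gene model Gm12695 and Ttn. The lower genes were the medium spiny neuron markers Pde10a, Ppp1r16b, Ryr1, Ppp1r1b and Rgs9, together with Lynx1, Igfbp4, Foxj1, Padi2 and 1500009C09Rik. None of the 12 overlapped between the 4 R6/2 and the 4 NCAR libraries, which also held for 1224 of all 15119 genes tested (8.1%). That share also stands beside each lack of overlap given below for a gene that was not called. At an unadjusted p under 0.05, 810 genes (5.36%) were higher and 989 (6.54%) lower, and the median log2 fold change of all genes was 0.00.

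The number of calls depended on the libraries and the fit. Without R6/2 replicate 2 and NCAR replicate 1, 63 of 15153 genes were called (0.416%), 49 of them lower (0.323%), and all 12 genes were among them. Leaving out 1 library gave 34 calls without NCAR replicate 1, 9 without R6/2 replicate 2, 6 without R6/2 replicate 3, 4 without R6/2 replicate 4 and 3 without NCAR replicate 2. It gave 2 calls without R6/2 replicate 1, NCAR replicate 3 or NCAR replicate 4. Scaling by read totals gave 7 calls, 2 higher and 5 lower. Fits that weighted libraries by quality or took the 16 libraries of 1 month together gave 275 and 302 calls, and all 12 genes were among both. Gm12695 and Pde10a were called in each of the 17 alternatives, and the other 10 genes in 6 to 13 of them.

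**Figure D1:**
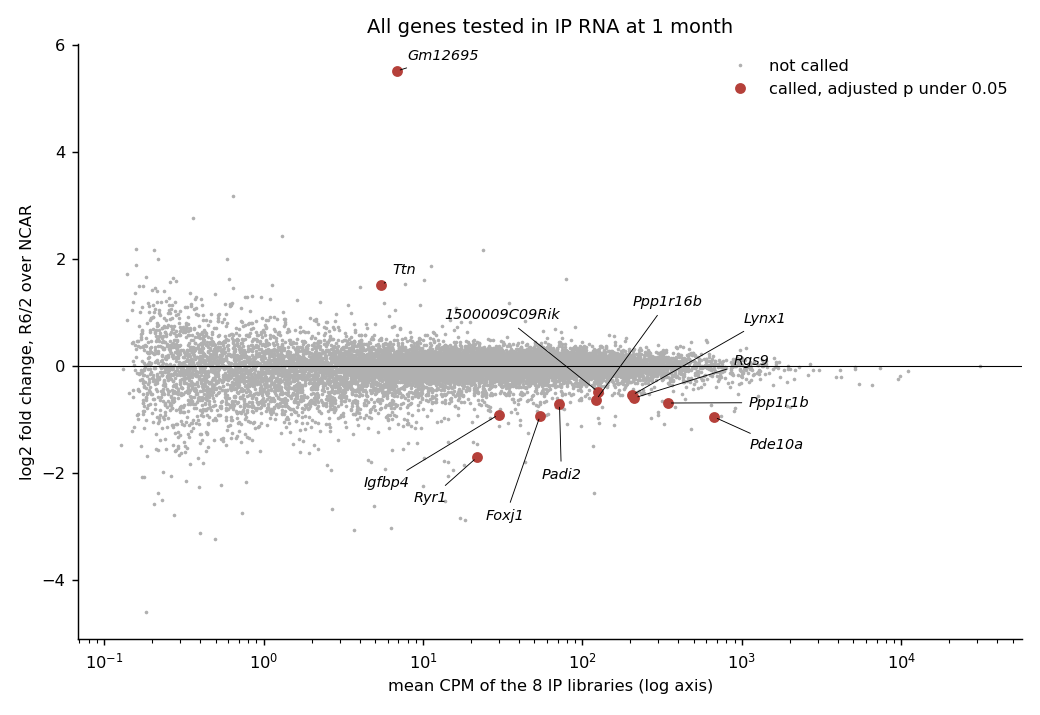
Each point is 1 of the 15119 genes tested in IP RNA at 1 month, with the mean level of the 8 libraries in CPM (log axis) against the log2 fold change of R6/2 over NCAR, and red points mark the 12 called genes. Gm12695 lies at 5.52, Ttn at 1.51 and the 10 called lower genes between -1.71 and -0.48.

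Gm12695 had the largest change of all genes tested. Its level was 14.4, 13.6, 13.7 and 11.8 CPM (read counts per 1000000 reads, TMM scaled) in R6/2 IP, against 0.333, 0.267, 0.411 and 0.184 CPM in NCAR IP. The lowest R6/2 library was far above the highest NCAR library, with a log2 fold change of 5.52 ± 0.24 (SE), or 45.9-fold (adjusted p = 1.82e-05, limma). The gene model lies at chr4:96723581-96786830 (mm10). Behind the IP values stood 606 to 1041 reads in R6/2 libraries and 11 to 28 reads in NCAR libraries. Input libraries of the same age held 196 to 278 reads in R6/2 and 3 to 8 reads in NCAR. At 2 and 3 months no R6/2 library overlapped an NCAR library either, in IP or in input RNA, so this gene followed the genotype labels in every group. Published work has placed the R6/2 transgene at this locus, which was not tested here. Of the 8 other genes tested within 1 Mb, from Fggy to Nfia, none was called, and the smallest p was that of Hook1 (0.40 ± 0.08, adjusted p = 0.113).

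Ttn, which encodes the sarcomere protein titin, was the other higher gene (chr2:76703980-76982557). It had 8.58, 9.35, 7.38 and 7.07 CPM in R6/2 IP, against 3.49, 2.62, 2.52 and 2.72 CPM in NCAR IP. All R6/2 libraries lay above all NCAR libraries, with a log2 fold change of 1.51 ± 0.15 (2.86-fold, adjusted p = 0.0123, limma). In input RNA it averaged 10.7 ± 2.32 CPM in R6/2 and 4.81 ± 0.682 CPM in NCAR (SD, n = 4 each). Among 21 measured genes of intracellular calcium release and the sarcomere, Ttn rose and Ryr1 fell, and the median was -0.18.

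Medium spiny neuron markers made up 5 of the 10 lower genes. On the shared list they were 5 of 24, beside 0.0661% of all genes called lower. The list was chosen with earlier results of these data known, so these counts are no independent support. Pde10a encodes phosphodiesterase 10A, which breaks down cyclic AMP and cyclic GMP and is concentrated in these neurons (chr17:8525187-8986648). Its level was 419, 490, 415 and 502 CPM in R6/2 IP, against 859, 875, 899 and 890 CPM in NCAR IP. Every R6/2 library lay well below every NCAR library, with a fold change of 0.516 (log2 fold change -0.95 ± 0.08, adjusted p = 0.00358, limma). Ppp1r1b encodes DARPP-32, which inhibits protein phosphatase 1 once dopamine signals have raised cyclic AMP (chr11:98348406-98357796). It had 220, 284, 270 and 277 CPM in R6/2 IP, against 432, 432, 414 and 413 CPM in NCAR IP. The groups did not overlap, and the log2 fold change was -0.69 ± 0.09 (adjusted p = 0.0315).

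Rgs9 encodes a regulator that ends G-protein signals downstream of dopamine receptors (chr11:109225348-109298181). Its level was 157, 190, 153 and 175.3 CPM in R6/2 IP, against 237, 253, 264 and 266 CPM in NCAR IP. It fell by 0.60 ± 0.08 on the log2 scale (adjusted p = 0.0491, limma). Ppp1r16b, a targeting subunit of protein phosphatase 1 (chr2:158666733-158766334), had 88.9, 103, 92.5 and 100 CPM in R6/2 IP, against 151, 159, 140 and 144 CPM in NCAR IP. It fell by 0.63 ± 0.07 (adjusted p = 0.0314), again without overlap. Ryr1 encodes the ryanodine receptor that releases calcium from internal stores and is best known from skeletal muscle (chr7:29003340-29125179). It had 7.57, 9.95, 9.68 and 13.5 CPM in R6/2 IP, against 23.9, 29.3, 39.3 and 40.9 CPM in NCAR IP. Its log2 fold change of -1.71 ± 0.21 (adjusted p = 0.0315) was the most negative of the 12.

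All 5 of these transcripts were lower in NCAR IP than in NCAR input, with log2 fold changes between -1.78 and -1.26. The 24 shared medium spiny neuron markers summed to 4920 to 7700 CPM in R6/2 IP and 8010 to 8730 CPM in NCAR IP. In bulk RNA of this kind fewer cells of a type and less RNA per cell cannot be told apart. The part of neuronal RNA carried into the IP in these calls was not tested.

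**Figure D2:**
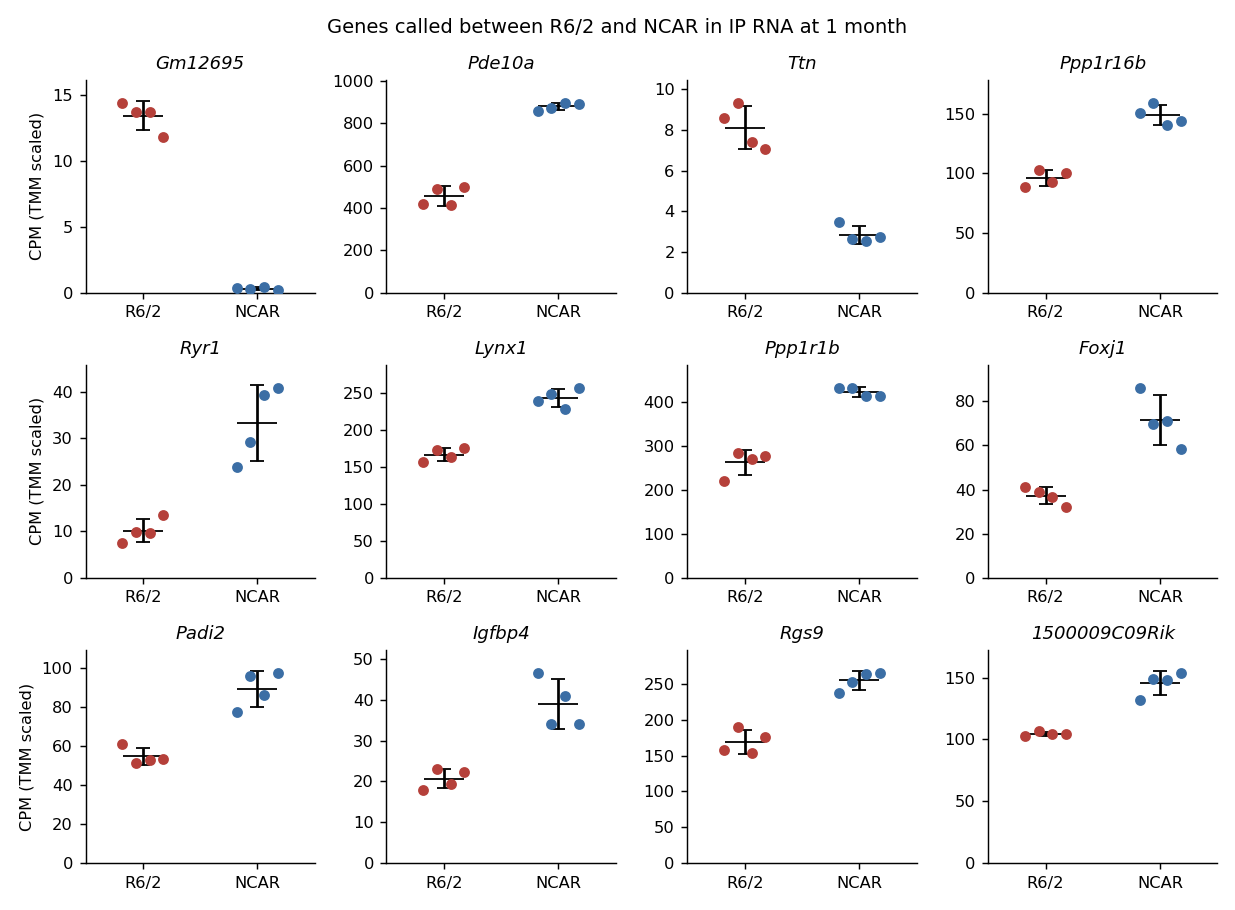
Level in CPM (y axes from 0) of the 12 called genes in each of the 4 R6/2 (left) and 4 NCAR (right) IP libraries at 1 month, with the mean and SD as bars. R6/2 and NCAR points do not overlap in any panel, as for 8.1% of all genes tested, from 11.8 to 14.4 against 0.184 to 0.411 CPM for Gm12695 to 103 to 107 against 132 to 154 CPM for 1500009C09Rik.

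The promoters of Ryr1 and Rgs9 are shown since both genes fell, both mark the same neurons and each has 1 start in the table used. The sequences are from RefSeq (GRCm38.p6) and run from 250 bases before to 50 bases after the start, with GC boxes (GGGCGG, both strands) and the TATA box (TATAAA, both strands) in capitals. Ryr1 is at chr7:29125102-29125401 and Rgs9 at chr11:109298132-109298431, both on the minus strand.
Ryr1: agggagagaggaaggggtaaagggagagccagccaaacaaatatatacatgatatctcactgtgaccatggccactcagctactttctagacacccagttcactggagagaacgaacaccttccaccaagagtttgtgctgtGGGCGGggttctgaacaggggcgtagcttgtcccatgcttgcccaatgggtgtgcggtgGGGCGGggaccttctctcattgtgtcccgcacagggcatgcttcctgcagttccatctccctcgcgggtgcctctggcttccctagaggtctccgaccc
Rgs9: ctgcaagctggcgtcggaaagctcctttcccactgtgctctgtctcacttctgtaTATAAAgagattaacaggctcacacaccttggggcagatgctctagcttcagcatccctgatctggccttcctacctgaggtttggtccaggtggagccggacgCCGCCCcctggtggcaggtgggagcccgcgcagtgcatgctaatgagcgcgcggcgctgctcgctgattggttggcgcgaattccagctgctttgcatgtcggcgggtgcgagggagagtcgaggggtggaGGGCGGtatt
Each window holds 2 GC boxes, and that of Rgs9 also holds 1 TATA box. Of the 12 called genes 9 matched the table, with 12 starts in all. A GC box was in 6 of the 12 windows, against 35.7% of all 32851 promoters of this length, and the TATA letters were in 2, against 13.6%. The cyclic AMP response element (TGACGTCA, the same on both strands) was in 0 of the 12 windows and in 1.79% of all promoters. By their letters these motifs cannot overlap each other, and a match describes the letters only.

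Lynx1 and Igfbp4 were the other lower genes that the IP did not enrich. Lynx1 encodes a membrane-anchored prototoxin that dampens nicotinic acetylcholine receptors (chr15:74747856-74752979). It had 156, 172, 163 and 174.7 CPM in R6/2 IP, against 239, 249, 228 and 257 CPM in NCAR IP. It fell by 0.55 ± 0.07 on the log2 scale (adjusted p = 0.0315, limma). Of 8 measured genes of the Ly6 and prototoxin family Lynx1 alone was called, and Lypd1 stood at -0.47 ± 0.11 (adjusted p = 0.174). Igfbp4 encodes a secreted binding protein of insulin-like growth factors (chr11:99040005-99052655). It had 18.0, 23.0, 19.4 and 22.2 CPM in R6/2 IP, against 46.7, 34.1, 41.0 and 34.2 CPM in NCAR IP. It fell by 0.91 ± 0.13 (adjusted p = 0.0491) and was the called member of 15 genes of the insulin-like growth factor axis. The insulin receptor gene Insr of that list stood at 0.29 ± 0.07 (adjusted p = 0.185).

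Foxj1, Padi2 and 1500009C09Rik were higher in NCAR IP than in NCAR input, with log2 fold changes of 2.36, 1.57 and 1.22. Foxj1 encodes the transcription factor of motile cilia, known from ependymal cells (chr11:116330704-116335499). Its level was 41.3, 38.8, 36.8 and 32.2 CPM in R6/2 IP, against 86.2, 69.7, 71.0 and 58.6 CPM in NCAR IP. The log2 fold change was -0.93 ± 0.12 (adjusted p = 0.0473, limma). Padi2 encodes a peptidylarginine deiminase, which turns arginine in proteins into citrulline (chr4:140906336-140952586). It had 61.1, 51.4, 52.6 and 53.2 CPM in R6/2 IP, against 77.3, 95.8, 85.9 and 97.5 CPM in NCAR IP. It fell by 0.70 ± 0.10 (adjusted p = 0.0473) and was the 1 gene measured of 4 in its family. The unnamed gene 1500009C09Rik (chr15:82252472-82260746) had 103, 107, 104 and 104 CPM in R6/2 IP, against 132, 149, 148 and 154 CPM in NCAR IP. It fell by 0.48 ± 0.07 (adjusted p = 0.0491).

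The same 12 genes were then read in input RNA of 1 month, where 1910 of 15490 genes were called (12.3%), 1199 of them lower (7.74%). In this RNA R6/2 replicate 4 and NCAR replicate 1 stood apart by their interferon level, at 3.97 and 4.33 log2 CPM against 0.70 to 2.06 in the other 6 libraries, and 1380 genes were called without them. Scaling by read totals gave 2145 higher and 900 lower genes, against 711 higher and 1199 lower. All 12 had the same sign in input and 11 were called there, all but Padi2 at -0.50 ± 0.18 (adjusted p = 0.0926). Pde10a averaged 1046 ± 130 CPM in R6/2 input and 2747 ± 165 CPM in NCAR input (SD, n = 4 each), a log2 fold change of -1.40 ± 0.09. Ryr1 stood at -2.39 ± 0.24 in input, Rgs9 at -1.002 ± 0.072 and Lynx1 at -1.03 ± 0.07. Leaving out 1 input library gave 1093 to 1987 calls, with 1093 without R6/2 replicate 2, 1100 without NCAR replicate 2, 1106 without NCAR replicate 4 and 1232 without NCAR replicate 3.

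Whether an IP change differed from the input change was tested by the interaction of genotype and RNA type. No gene of 15901 was called (0%), by limma or by voom, with 1349 and 1348 genes at an unadjusted p under 0.05. The count reached 6 without IP R6/2 replicate 3, 2 without Input R6/2 replicate 3 and 1 without IP NCAR replicate 2. For Lynx1 the IP minus the input change was 0.47 ± 0.10 (adjusted p = 0.144, limma). It was 0.43 ± 0.13 for Pde10a (adjusted p = 0.318) and 0.39 ± 0.11 for Rgs9 (adjusted p = 0.315). The labels do not tie IP to input libraries, and both kinds may come from the same animals.

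At 2 months 842 of 15022 genes were called in IP RNA (5.61%), 674 of them lower (4.49%), and at 3 months 2137 of 15040 (14.2%), 1401 of them lower (9.32%). With 1 library left out these counts ran from 429 (without R6/2 replicate 4) to 2470 (without NCAR replicate 2) at 2 months, and from 831 (without NCAR replicate 4) to 3135 (without NCAR replicate 3) at 3 months. At 2 months the count was also 492 and 456 without R6/2 replicates 2 and 3, and 484 and 434 without NCAR replicates 1 and 4. At 3 months it was 1068 and 1155 without R6/2 replicates 1 and 2, and 954 without NCAR replicate 1. Scaling by read totals gave 369 higher and 457 lower genes at 2 months, and 1957 higher and 1073 lower at 3 months. All 12 genes had the same sign at each age, 9 were called at 2 months and 11 at 3 months, and 9 were called at all 3 ages.

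Pde10a stood at -2.08 ± 0.20 at 2 months and -2.14 ± 0.23 at 3 months in IP RNA. Ryr1 stood at -3.50 ± 0.21 and -3.53 ± 0.21 at these ages, Ppp1r1b at -1.64 ± 0.14 and -1.63 ± 0.21, and Igfbp4 at -1.41 ± 0.10 and -1.65 ± 0.13. Gm12695 was at 6.03 ± 0.62 and 4.57 ± 0.23, and Ttn at 1.58 ± 0.30 and 1.21 ± 0.30. Foxj1 had a log2 fold change of -0.04 ± 0.28 at 2 months (adjusted p = 0.935, limma) and -0.95 ± 0.29 at 3 months (adjusted p = 0.0551). The 1-month libraries carry another run label than those of 2 and 3 months, so age and run cannot be told apart, and the ages were not compared by a test.

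**Figure D3:**
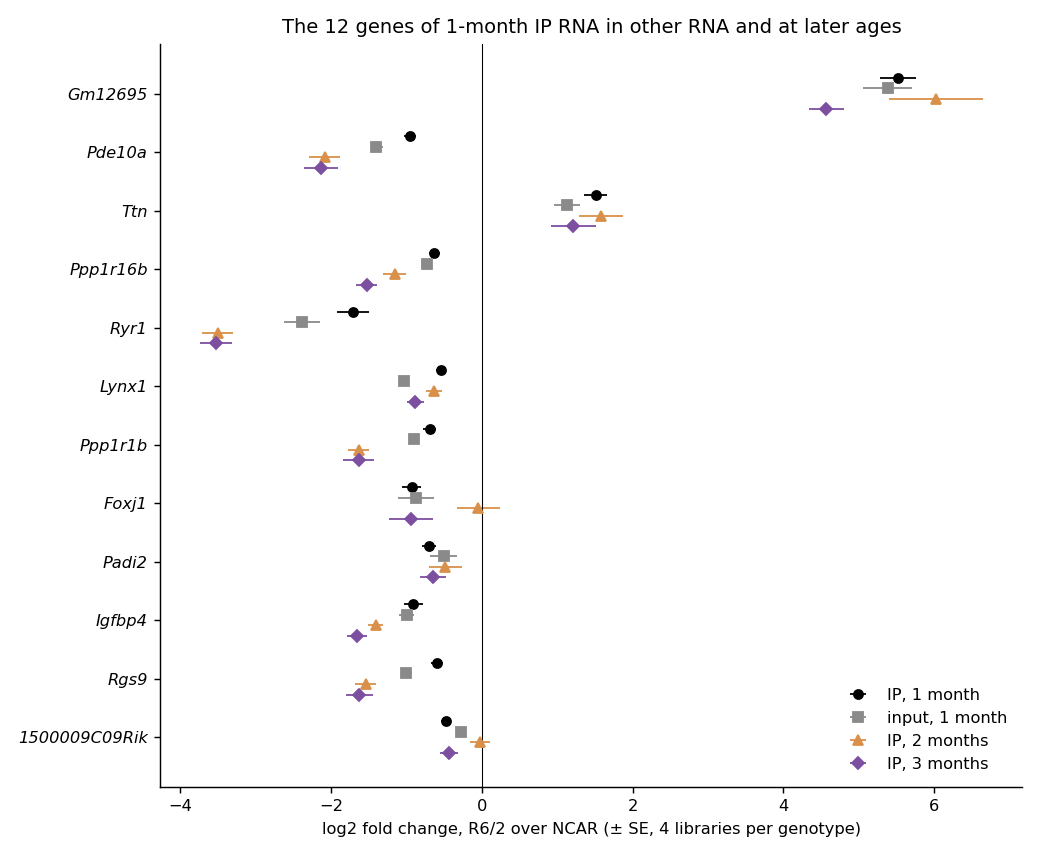
Log2 fold change of R6/2 over NCAR (± SE, 4 libraries per genotype) of the 12 called genes in IP RNA at 1 month, input RNA at 1 month, and IP RNA at 2 and 3 months. All values of a gene lie on the same side of 0, and in IP RNA those of Ryr1 are -1.71 at 1 month, -3.50 at 2 months and -3.53 at 3 months.

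The next 18 genes by p, which averaged 5 CPM or more and were separate in the genotypes, clone-type symbols aside, had adjusted p between 0.053 and 0.070 and were not called. Of these 14 were lower and 4 higher in R6/2, and all 18 were called in input RNA, beside 12.3% of all genes there. Without the 2 interferon-high libraries 11 of the 18 were called, beside 63 of 15153 genes tested (0.416%). The 18 were picked by p from libraries that this fit uses again, so the count lends them no support. Cnr1, the cannabinoid receptor CB1, had 169, 166, 149 and 193 CPM in R6/2 IP, against 236, 242, 249 and 256 CPM in NCAR IP (-0.54 ± 0.08, adjusted p = 0.0608, limma). Th, tyrosine hydroxylase of dopamine synthesis, had 4.14, 6.49, 4.39 and 5.67 CPM in R6/2 IP, against 12.2, 9.62, 9.74 and 11.9 CPM in NCAR IP (-1.09 ± 0.17, adjusted p = 0.0608). It fell without the 2 interferon-high libraries (-1.15 ± 0.15, adjusted p = 0.0381).

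Pmepa1, an inhibitor of TGF-beta signalling, was the closest to the threshold, with 24.6, 33.8, 21.3 and 29.1 CPM in R6/2 IP, against 56.4, 59.9, 46.6 and 53.3 CPM in NCAR IP (-1.01 ± 0.14, adjusted p = 0.053, limma). The glutamate receptor scaffold Homer1 stood at -0.45 ± 0.07, the neuronal calcium sensor Hpca at -0.50 ± 0.08 and the calmodulin-dependent kinase kinase Camkk2 at -0.52 ± 0.08. The Notch ligand Jag1 had 8.48, 8.83, 9.73 and 9.14 CPM in R6/2 IP, against 13.1, 13.3, 13.3 and 15.3 CPM in NCAR IP. The Notch target Hey1 had 87.3, 93.0, 74.9 and 94.7 CPM in R6/2 IP, against 132, 145, 119 and 133 CPM in NCAR IP. Both stood at -0.60 on the log2 scale with an adjusted p of 0.0623. On the higher side the noncoding RNA Rian stood at 0.63 ± 0.09, Wsb1 at 0.63 ± 0.10, Abca8b at 0.48 ± 0.07 and Lrrn3 at 0.66 ± 0.11.

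Beyond the called genes, all 24 shared medium spiny neuron markers were below 0 in R6/2 IP. Their median log2 fold change was -0.38, with a range of -1.71 to -0.08, beside 0.00 for all genes tested. Of the 24, 5 fell and 16 were lower at an unadjusted p under 0.05. The 5 calls became 1 without R6/2 replicate 1 or 3 or NCAR replicate 2, 3 or 4, 2 without R6/2 replicate 4, 4 without R6/2 replicate 2 and 5 without NCAR replicate 1, with the median between -0.47 and -0.28. Library weights gave 10 calls and the fit of 16 libraries 12. In input RNA 23 fell, with a median of -0.72, and in IP RNA 22 fell at 2 months, with a median of -1.19, and 20 at 3 months, with a median of -1.15. The shares of all genes called lower in these comparisons were 7.74%, 4.49% and 9.32%. Adcy5, the main adenylyl cyclase of these neurons, had 277, 313, 370 and 431 CPM in R6/2 IP, against 401, 557, 596 and 592 CPM in NCAR IP. Its groups overlapped, at -0.63 ± 0.16 (adjusted p = 0.192, limma). Arpp21, a cyclic AMP-regulated phosphoprotein, had 148, 182, 202 and 209 CPM in R6/2 IP, against 263, 240, 275 and 250 CPM in NCAR IP. Its groups did not overlap, at -0.48 ± 0.11 (adjusted p = 0.16).

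Markers of the indirect pathway, whose neurons carry D2 dopamine receptors, had a median of -0.35 over 9 genes, with 9 below 0. Markers of the direct pathway, whose neurons carry D1 receptors, had a median of 0.09 over 8 measured genes, with 3 below 0. No gene of either list was called, and the difference between the pathways was not tested. The fit of 16 libraries called 2 indirect pathway genes lower, and of the direct pathway 1 higher and 1 lower. The enkephalin gene Penk had 128, 204, 260 and 247 CPM in R6/2 IP, against 600, 333, 434 and 393 CPM in NCAR IP (-1.09 ± 0.24, adjusted p = 0.14, limma). The adenosine receptor gene Adora2a had 30.2, 32.9, 50.2 and 53.0 CPM in R6/2 IP, against 56.2, 60.9, 79.4 and 69.0 CPM in NCAR IP (-0.71 ± 0.19, adjusted p = 0.206). Neither gene overlapped between genotypes, as held for 3 of the 9 indirect pathway genes and 8.1% of all genes tested. Of the direct pathway the transcription factor Isl1 had 19.1, 17.0, 17.4 and 18.8 CPM in R6/2 IP, against 12.3, 12.9, 12.1 and 15.8 CPM in NCAR IP (0.45 ± 0.11, adjusted p = 0.169). The substance P gene Tac1 stood at 0.18 ± 0.23 and the muscarinic receptor gene Chrm4 at -0.50 ± 0.13.

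General neuronal genes had a median of -0.07 over 24 genes, with none called. That median changed sign to 0.07 without NCAR replicate 1 and was -0.14 without NCAR replicate 3. The synaptic gene Snap25 averaged 744 ± 46.8 CPM in R6/2 IP and 779 ± 159 CPM in NCAR IP (SD, n = 4 each). Striatal interneuron genes had a median of -0.15 over 13 genes, with none called, and of -0.25 (without R6/2 replicate 2) to -0.05 (without NCAR replicate 1) with 1 library left out. Of 11 measured receptors and G-protein genes of dopamine and cyclic AMP signalling, 10 were below 0 and Rgs9 fell, with a median of -0.35. Rgs4, another regulator of G-protein signals, had 186, 228, 275 and 301 CPM in R6/2 IP, against 365, 373, 419 and 385 CPM in NCAR IP, without overlap (-0.66 ± 0.14, adjusted p = 0.136, limma). Of 15 cyclases, phosphodiesterases and kinases Pde10a fell, and the median was -0.01. Of 21 genes of protein phosphatase 1 and its regulators Ppp1r1b and Ppp1r16b fell, and the median was -0.09. The signalling, phosphatase, calcium release, prototoxin, deiminase and growth factor lists were drawn up with the called genes known, so their called members support nothing.

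All 20 mature oligodendrocyte and myelin genes were below 0 in R6/2 IP. Their median was -0.76, with a range of -1.06 to -0.52, and 19 were lower at an unadjusted p under 0.05. Padi2 was the member that fell. It was also the 1 member called higher in NCAR IP than in NCAR input (log2 fold change 1.57), where the list had a median of -0.67. With 1 library left out the median of R6/2 over NCAR lay between -0.93 and -0.62, and Padi2 was called only without NCAR replicate 1. Library weights gave 4 calls and the fit of 16 libraries 7. Ugt8a, of galactolipid synthesis in myelin, had 80.4, 65.3, 89.7 and 91.4 CPM in R6/2 IP, against 210, 227, 122 and 139 CPM in NCAR IP. It did not overlap, at -1.06 ± 0.20 (adjusted p = 0.123, limma). The tight junction gene Cldn11 had 91.8, 113, 97.1 and 125 CPM in R6/2 IP, against 250, 284, 140 and 168 CPM in NCAR IP (-0.93 ± 0.21, adjusted p = 0.16).

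The 20 genes summed to 3300 to 4240 CPM in R6/2 IP and 4280 to 8830 CPM in NCAR IP, with NCAR replicates 1 and 2 highest in median level. In input RNA the median was -0.44 and 2 members fell. In IP RNA at later ages the median was -1.02 at 2 months, where 5 fell, and -1.60 at 3 months, where 15 fell. Beside these counts stood 7.74% of all genes called lower in input, 4.49% at 2 months and 9.32% at 3 months. Precursor and newly formed oligodendrocyte genes had a median of -0.28 over 12 genes, with none called.

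Other cell types held little of the IP RNA. The 15 microglia markers summed to 50 to 66.3 CPM in R6/2 IP and 61.0 to 70.0 CPM in NCAR IP, with a median log2 fold change of -0.45 and none called. Tmem119, a defining microglia marker, did not exceed 0.569 CPM in R6/2 IP or 1.10 CPM in NCAR IP. The 15 endothelial and mural markers summed to 325 to 335 CPM in R6/2 IP and 357 to 368 CPM in NCAR IP, with a median of -0.56 and none called. Cldn5, a defining endothelial marker, did not exceed 1.498 CPM in R6/2 IP or 2.186 CPM in NCAR IP. No member of the microglia and endothelial lists was at 0 in any IP library. The 5 measured choroid plexus genes had a median of -0.14.

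Of 22 measured ependymal and cilia genes Foxj1 fell, and 19 were below 0 with a median of -0.49. The median was -0.13 without the 2 interferon-high libraries, and -0.22 without R6/2 replicate 2 alone. The list summed to 322 to 453 CPM in R6/2 IP and 413 to 598 CPM in NCAR IP. The radial spoke gene Rsph1 had 7.61, 4.98, 6.30 and 4.80 CPM in R6/2 IP, against 11.5, 9.39, 14.5 and 9.40 CPM in NCAR IP (-0.92 ± 0.19, adjusted p = 0.136, limma). The part of these cell types in the calls was not tested.

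**Figure D4:**
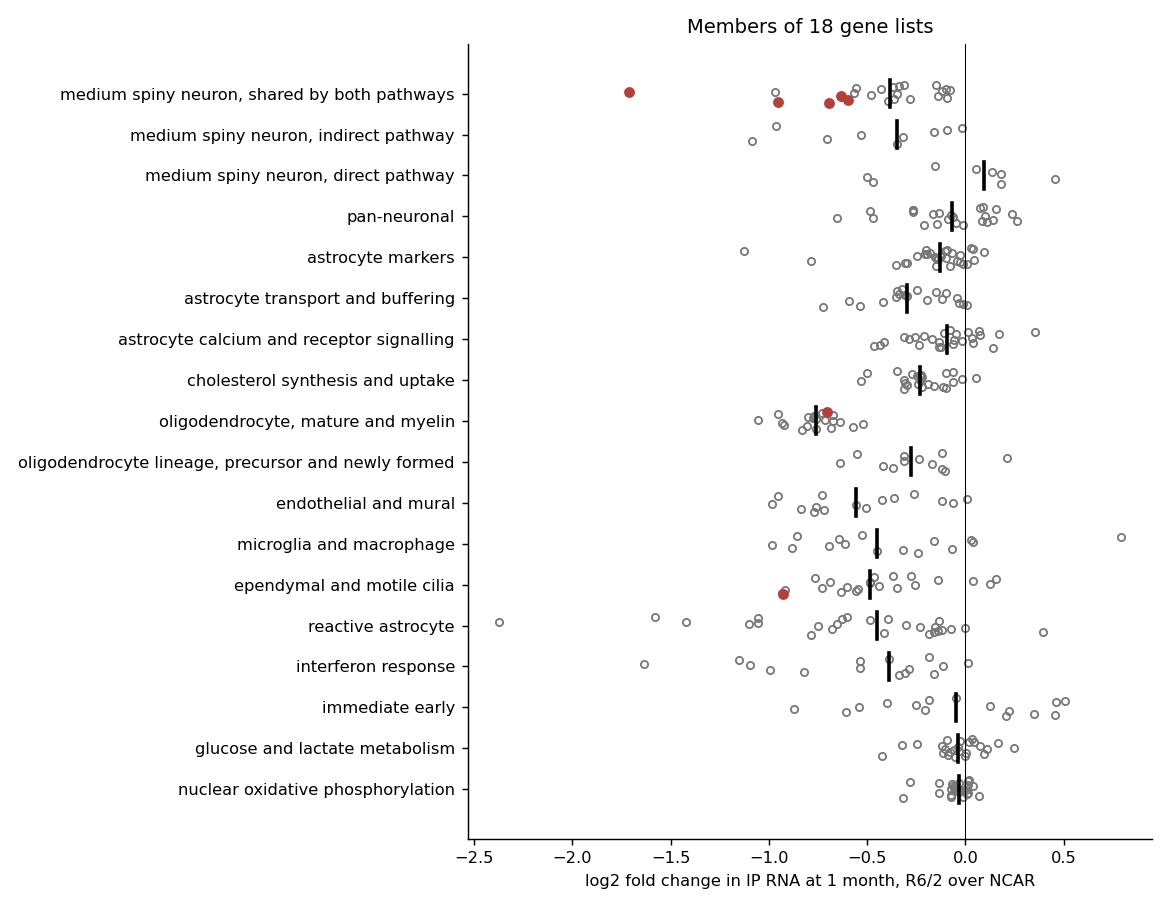
Log2 fold change of R6/2 over NCAR in IP RNA at 1 month for the members of 18 gene lists, with open circles for genes not called, red points for called genes and black bars for list medians. The 20 mature oligodendrocyte genes lie between -1.06 and -0.52 and the 24 shared medium spiny neuron markers between -1.71 and -0.08, while the medians of the metabolic lists are -0.04 and -0.03.

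None of the 30 astrocyte markers was called at 1 month. Their median was -0.13, and 4 were lower and 0 higher at an unadjusted p under 0.05. Without NCAR replicate 1 alone, 2 of the 30 were called lower. With library weights 3 were called lower, and in the fit of 16 libraries also 3. They summed to 68800 to 76800 CPM in R6/2 IP and 75400 to 78300 CPM in NCAR IP. The glutamate transporter gene Slc1a2 had 36497, 32716, 26118 and 29583 CPM in R6/2 IP, against 29602, 31362, 31196 and 31288 CPM in NCAR IP (0.01 ± 0.13, adjusted p = 0.991, limma). The groups overlapped, as did those of the folate enzyme gene Aldh1l1, with 493 ± 51.1 CPM in R6/2 IP and 546 ± 54.2 CPM in NCAR IP (SD, n = 4 each). Itih3, an inter-alpha-trypsin inhibitor chain that binds hyaluronan, had 59.5, 63.5, 74.98 and 46.1 CPM in R6/2 IP, against 80.7, 153, 152 and 158 CPM in NCAR IP (-1.13 ± 0.23, adjusted p = 0.133). Gfap, the astrocyte intermediate filament, had 692, 668, 716 and 549 CPM in R6/2 IP, against 1702, 1095, 888 and 969 CPM in NCAR IP (-0.79 ± 0.19, adjusted p = 0.173). Neither Itih3 nor Gfap overlapped between genotypes, as held for 3 of the 30 markers and 8.1% of all genes tested.

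Of 19 genes of astrocyte transport and ion buffering 18 were below 0, with a median of -0.30. None was called, and 10 were lower at an unadjusted p under 0.05, while 1 was called lower without R6/2 replicate 2 or NCAR replicate 1. With library weights 5 of the 19 were called lower, and in the fit of 16 libraries 2. Kcnj16, which encodes Kir5.1, a partner of Kir4.1, had 56.9, 71.3, 59.3 and 57.6 CPM in R6/2 IP, against 92.3, 81.3, 91.0 and 89.7 CPM in NCAR IP (-0.54 ± 0.09, adjusted p = 0.0699, limma). Kcnj10, which encodes Kir4.1, the main potassium channel of astrocytes, had 547, 641, 393 and 368 CPM in R6/2 IP, against 611, 1030, 649 and 920 CPM in NCAR IP (-0.72 ± 0.22, adjusted p = 0.239). Kcnj16 did not overlap, while for Kcnj10 R6/2 replicate 2 lay above NCAR replicate 1. The connexin 43 gene Gja1 had 1795, 1659, 1778 and 1676 CPM in R6/2 IP, against 2195, 2184, 2140 and 1967 CPM in NCAR IP, without overlap (-0.30 ± 0.07, adjusted p = 0.174). The GABA transporter gene Slc6a11 stood at -0.42 ± 0.17 (adjusted p = 0.37).

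Leaving out R6/2 replicate 2 and NCAR replicate 1 brought 3 astrocyte genes past the threshold, in a fit that called 63 of 15153 genes (0.416%). Kcnj16 fell by 0.59 ± 0.06 on the log2 scale, Itih3 by 1.39 ± 0.15 and the connexin 30 gene Gjb6 by 0.46 ± 0.05, each with an adjusted p of 0.0219 (limma). The fit of 16 libraries called Kcnj16 and Itih3 (adjusted p = 0.0118 and 0.0144, limma) but not Gjb6 (adjusted p = 0.349). Over all 8 libraries Gjb6 had 118, 97.7, 116 and 113 CPM in R6/2 IP, against 88.7, 156, 163 and 157 CPM in NCAR IP, where the low NCAR value is that of replicate 1. Without R6/2 replicate 2 and NCAR replicate 1, Kcnj10 stood at -0.99 ± 0.20 and Gfap at -0.60 ± 0.12, both with an adjusted p of 0.078 (limma). The shared medium spiny neuron list had a median of -0.40 with 5 called, and the mature oligodendrocyte list one of -0.70 with 1 called.

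Calcium and receptor signalling genes of astrocytes had a median of -0.09 over 26 measured genes, with none called. Matrix and synapse-regulating factors had a median of 0.03 over 20 genes, with none called, and of -0.03 with 1 called lower without NCAR replicate 1. Sparc, a matrix protein secreted by astrocytes, had 348, 514, 593 and 518 CPM in R6/2 IP, against 506, 1266, 947 and 1222 CPM in NCAR IP (-0.94 ± 0.28, adjusted p = 0.236, limma). Of 24 genes of cholesterol synthesis and uptake 23 were below 0, with a median of -0.23, none was called and 9 were lower at an unadjusted p under 0.05. With library weights 1 of them was called lower, and in the fit of 16 libraries 3. Acat2, of acetoacetyl-CoA formation, had 46.8, 41.7, 42.4 and 46.0 CPM in R6/2 IP, against 54.0, 57.9, 54.97 and 58.5 CPM in NCAR IP, without overlap (-0.35 ± 0.07, adjusted p = 0.135). In IP RNA at 2 months 14 of the 24 fell, with a median of -0.63, and in 1-month input 10 fell. The shares of all genes called lower there were 4.49% and 7.74%. Medians were -0.04 for 24 genes of glucose and lactate metabolism, -0.03 for 24 nuclear genes of oxidative phosphorylation and -0.02 for 16 chaperones, with no calls.

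Interferon response genes differed between libraries of the same genotype. Their median level was 3.44, 5.52, 2.03 and 2.55 log2 CPM in R6/2 IP, against 5.89, 3.08, 3.71 and 3.09 log2 CPM in NCAR IP. R6/2 replicate 2 and NCAR replicate 1 stood high, and the genotypes overlapped. Reactive astrocyte genes were high in the same libraries, with median levels of 2.77, 4.51, 2.67 and 2.30 log2 CPM in R6/2 IP, against 4.93, 3.12, 3.34 and 2.42 log2 CPM in NCAR IP. The complement gene C3 had 2.06, 5.13, 1.87 and 1.04 CPM in R6/2 IP, against 28.0, 2.54, 7.47 and 3.10 CPM in NCAR IP.

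Between genotypes none of the 15 interferon and 26 reactive genes was called. The medians of their log2 fold changes were -0.39 and -0.45. Without NCAR replicate 1 they were 0.17 and -0.14, and without R6/2 replicate 2 they were -1.16 and -0.73. Of the reactive genes, library weights called 2 lower and the fit of 16 libraries 1. The first principal component of the 8 libraries held 37.4% of the variance and placed R6/2 replicate 2 at 37.9 and NCAR replicate 1 at 60.4, with the other 6 libraries between -31.8 and -2.3. Of 11215 genes that averaged 5 CPM or more, 63 differed by 2-fold or more, 51 lower and 12 higher. Of these 3 were called, and 29 had an SE above 1 on the log2 scale.

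**Figure D5:**
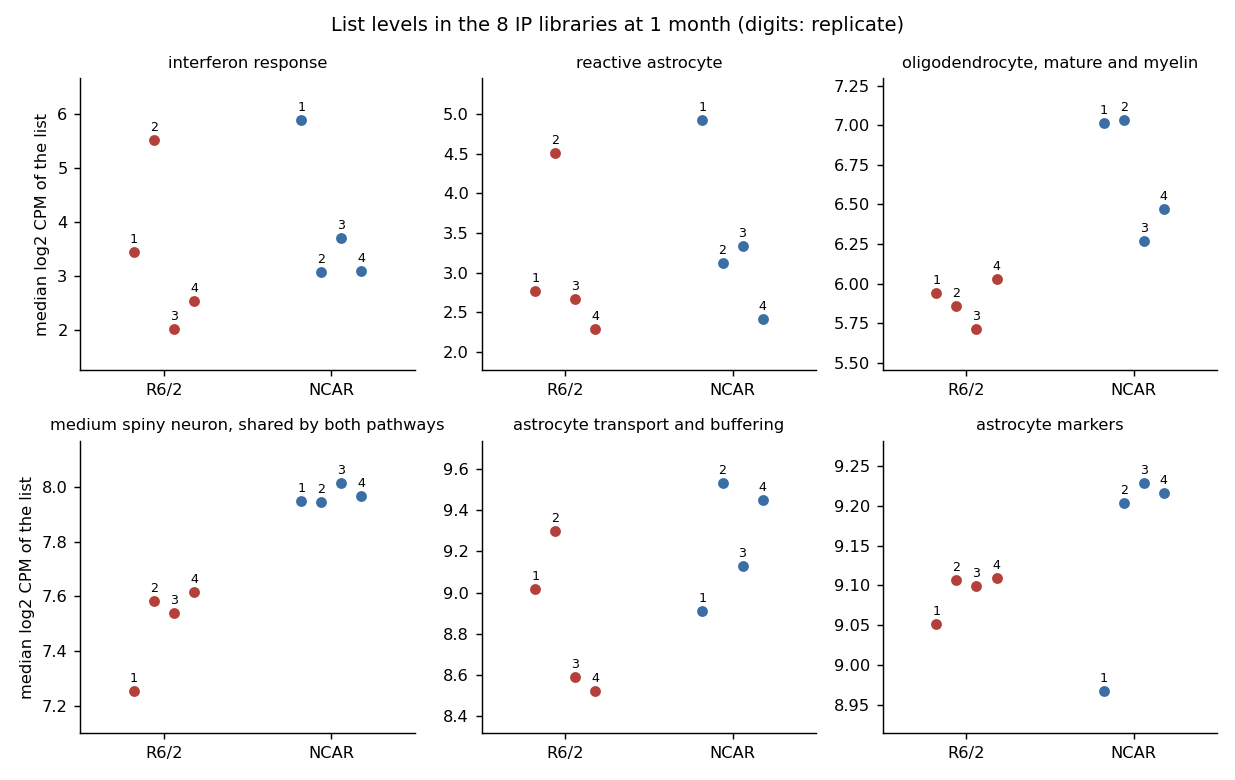
Median log2 CPM of 6 gene lists in each IP library at 1 month, with R6/2 on the left, NCAR on the right and digits for the replicate (y axes do not start at 0). R6/2 replicate 2 and NCAR replicate 1 stand high for interferon genes (5.52 and 5.89) and reactive genes (4.51 and 4.93).

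Genes enriched in the IP were taken as a class from NCAR IP over NCAR input at 2 and 3 months, with a log2 fold change of at least 1 and an adjusted p under 0.05 at both ages. These libraries do not enter the 1-month comparison. Of the 1697 genes, 1204 (70.9%) were below 0 in R6/2 IP at 1 month, with a median of -0.11, beside 49.6% of all genes tested. Foxj1 and Padi2 were the called genes of the class (0.118%), and 229 were lower and 26 higher at an unadjusted p under 0.05. Sfrp5, a secreted Wnt inhibitor, had 1.54, 1.46, 0.754 and 0.759 CPM in R6/2 IP, against 3.68, 5.35, 3.48 and 4.24 CPM in NCAR IP, without overlap (-1.95 ± 0.29, adjusted p = 0.0551, limma). Polr2a, the large subunit of RNA polymerase II, had 132, 140, 93.0 and 87.6 CPM in R6/2 IP, against 61.4, 66.3, 67.0 and 73.1 CPM in NCAR IP, without overlap (0.73 ± 0.15, adjusted p = 0.136). Sfrp1, another secreted Wnt inhibitor, had 73.5, 100, 76.4 and 79.5 CPM in R6/2 IP, against 72.2, 53.8, 50.1 and 34.3 CPM in NCAR IP (0.69 ± 0.20, adjusted p = 0.232).

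Genes called in other libraries were also read in 1-month IP RNA. There 7499 of all 15119 genes tested (49.6%) were below 0, 7620 were above 0 and 10 (0.0661%) were called lower. Of 670 measured genes called lower in IP RNA at 2 months, 585 (87.3%) were below 0 at 1 month and 7 were called. Their median was -0.25 at 1 month, beside -0.92 at 2 months, where they were selected. Of 1371 genes called lower at 3 months, 1211 (88.3%) were below 0 at 1 month and 9 were called, with a median of -0.26. Of 166 genes called higher at 2 months, 113 (68.1%) were above 0 at 1 month, with a median of 0.10, and of 726 called higher at 3 months 614 (84.6%) were, with a median of 0.13. Later medians are those of genes selected at that age, so their sizes at different ages were not compared.

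Immediate early genes, whose RNA follows neuronal activity, had a median of -0.05 over 15 genes, with none called. The median was 0.25 without the 2 interferon-high libraries and 0.39 without R6/2 replicate 1. At 2 months 13 of the 15 fell, with a median of -1.69, beside 4.49% of all genes called lower. Egr2, a transcription factor of this kind, had 0.457, 1.46, 5.96 and 5.88 CPM in R6/2 IP at 1 month, against 7.72, 4.99, 2.00 and 3.45 CPM in NCAR IP, with overlap (-0.87 ± 0.79, adjusted p = 0.726, limma).

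Mouse Htt had 272, 264, 267 and 271 CPM in R6/2 IP, against 190, 230, 230 and 244 CPM in NCAR IP. The groups did not overlap, at 0.27 ± 0.08 (adjusted p = 0.243, limma). In input RNA it averaged 277 ± 3.77 CPM in R6/2 and 281 ± 15.5 CPM in NCAR (SD, n = 4 each). The transgene is a human first exon, so this mouse gene does not check the genotype labels.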

How the data were processed

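Polyadenylated RNA of mouse striatum was sequenced as IP and input libraries (TruSeq, per the labels' protocols). Per the submitters' processing notes the tools included STAR, HTSeq and limma, with mm10 as the build and no versions. The deposited values are log2 CPM, made by the authors with a prior count of 0.25 as the values show. Whole reads were recovered from them (100% of values whole within 0.01), rescaled by TMM (trims of 30% and 5%) and turned to log2 CPM again with the same prior. Genes had at least 10 reads at the median library size in 4 libraries and 15 in all. Each comparison was fitted alone with limma 3.58.1 in R 4.3.3 (intensity trend, two-sided, Benjamini-Hochberg). Simulated data were used to test the fit of the main comparison only. The input, interaction, later-age and IP over input fits were not tested in that way. Fold changes are of log2 CPM, so those of low genes are understated. Gene coordinates are from a gene annotation of the same build.

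Replicate numbers follow accession order, and the Q175 and WT libraries of the series were not used. Members and gene lists (30, of which 29 had measured genes) were chosen with earlier results of these data known. Genes were named by rule: Htt, all called genes, the next by p up to 30 in all at a mean of at least 5 CPM without overlap and without clone-type symbols, up to 4 members of each list by p, members of lists of 10 or fewer measured genes, and 5 IP-enriched genes per direction. Outside the rule, and chosen after their values were seen, are Arpp21, Snap25, Cldn11, Cldn5, Slc1a2, Aldh1l1, Gjb6, Slc6a11, C3 and Egr2. The alternatives were other scalings, filters, prior counts, voom, library weights, robust variance, 16 libraries in 1 fit, and each library left out.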

Additional observations from a re-analysis of the deposited data

Results flagged for a closer look

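In 84 sets of 4 libraries (Htt, the 12 called genes and 29 lists in each genotype), 7 list levels had 1 library far from the other 3 by Dixon's criterion at the 95% level, where chance gives about 1 in 20. No single gene among the 13 had such a library. In R6/2 IP the level of oxidative phosphorylation genes was low in replicate 2 (6.76 log2 CPM, median of the list), and that of calcium release and sarcomere genes was low in replicate 1 (3.10). In NCAR IP replicate 1 was low for astrocyte markers (8.97) and oxidative phosphorylation genes (6.52) and high for astrocyte calcium and receptor genes (7.07). NCAR replicate 2 was high for protein phosphatase 1 and its regulators (6.6), and NCAR replicate 3 for the insulin-like growth factor axis (5.19).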

How the results depend on the processing

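No paired analysis was possible because the labels give no replicate numbers that IP or input libraries of the genotypes share. In 1-month IP RNA the 12 calls became 7 with scaling by read totals, 7 with voom, 275 with library weights (93 higher, 182 lower), 302 with 16 libraries in 1 fit (99 higher, 203 lower; 168 genes shared with the weighted fit) and 63 without the interferon-high libraries, and ran from 2 to 34 with 1 library left out. The cause of these differences was not tested. Counts of 16 with the deposited scaling, 12 with a prior of 2, 9 without a filter and 9 with robust variance lay within 1.5 times of 12. With 1 library left out the calls ran from 1093 to 1987 in input, 0 to 6 for the interaction, 429 to 2470 in IP at 2 months, 831 to 3135 in IP at 3 months and 10514 to 11717 for IP over input. Scaling by read totals gave 3045 calls in input, 2145 of them higher. It gave 3705 higher and 8102 lower genes for IP over input, and moved the median of all genes to -0.37 there, to 0.15 in IP at 2 months and to 0.14 in IP at 3 months. A log2 minimum of 2 left 396 IP-enriched genes. No called result reversed. Over Htt and the 12 called genes, 142 values kept their side of the threshold and 79 lost it, with adjusted p up to 0.211 among the called genes. Of the list medians under these alternatives, 490 moved by less than the spread between replicates and 3 by more, while of the counts of called list members 382 lay within 1.5 times of the main count and 111 did not. A change of sign within that spread still counted among the 490, as for the interferon median (-0.39, and 0.17 without NCAR replicate 1). Lists whose level varied much between libraries could hardly move by more, so the 490 do not measure stability. The 4 libraries per genotype and the lack of animal labels limit every comparison.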
